A study of Mus musculus with 3 samples.

Results

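The genes described here are the 10 that make up the classical and non-classical MHC class II system of the mouse and were listed by name: H2-Aa, H2-Ab1, H2-Eb1, Cd74, Ciita, H2-DMa, H2-DMb1, H2-DMb2, H2-Oa and H2-Ob. All 10 were present among the 31053 genes of the count files. They were followed in 3 neuroblastomas from TH-MYCN mice, animals in which a human MYCN transgene is driven in sympathetic lineage cells by the rat tyrosine hydroxylase promoter. The mice were heterozygous for the transgene and the tumors were taken at 62, 79 and 63 days of age. Each tumor was dissociated and profiled once by droplet single-cell RNA sequencing, so that all 3 samples belong to 1 group and no treated or wild-type sample was part of the comparison. The tumor was the replicate throughout.

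MHC class II molecules present peptides from the endosomal route to CD4+ T cells. Their alpha and beta chains (H2-Aa with H2-Ab1, and the E beta chain H2-Eb1) assemble on the invariant chain, encoded by Cd74, which guards the peptide groove until it is degraded in late endosomes. H2-DM, a heterodimer of H2-DMa with H2-DMb1 or H2-DMb2, then exchanges the remaining invariant chain fragment for peptide, and H2-O, a heterodimer of H2-Oa and H2-Ob best known from B cells, restrains H2-DM. Ciita encodes a transactivator of class II genes. It does not bind DNA itself but is recruited by proteins sitting on the X and Y boxes upstream of class II genes. B cells, dendritic cells and activated macrophages are the usual sources of these transcripts, while neuroblasts are not known as professional antigen-presenting cells.

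In the mm10 assembly, with the GENCODE M21 annotation, 8 of the 10 genes lay together on chromosome 17. From left to right these were H2-Oa at chr17:34092340-34095234, H2-DMa at chr17:34119541-34139101, H2-DMb2 at chr17:34143307-34151555, H2-DMb1 at chr17:34153072-34160230, H2-Ob at chr17:34238903-34254414, H2-Ab1 at chr17:34257689-34269419, H2-Aa at chr17:34282744-34287823 and H2-Eb1 at chr17:34305867-34316674. H2-Aa was the only one of these on the minus strand. Ciita lay apart at chr16:10480059-10528418 and Cd74 on another chromosome.

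The stretches upstream of 4 of these genes, 2 that were read mainly from several antigen-presenting classes and 2 that were read mainly from B cell-like cells, are printed to show the regulatory layout that the genes share. They come from RefSeq promoters (GRCm38.p6), and the capitals mark exact matches to the X box core ATGATGC and the Y box TGATTGG. H2-Aa is from chr17:34287855-34287925 on the minus strand, H2-Eb1 from chr17:34305771-34305824, H2-DMb2 from chr17:34145121-34145175 (inside an intron of a longer annotated transcript) and H2-Ob from chr17:34238813-34238864, all 3 on the plus strand.
H2-Aa: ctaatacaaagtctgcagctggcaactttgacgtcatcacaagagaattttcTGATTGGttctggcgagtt
H2-Eb1: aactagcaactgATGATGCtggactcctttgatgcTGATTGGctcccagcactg
H2-DMb2: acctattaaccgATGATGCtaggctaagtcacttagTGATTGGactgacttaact
H2-Ob: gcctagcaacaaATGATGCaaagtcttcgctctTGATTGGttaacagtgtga

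H2-Eb1, H2-DMb2 and H2-Ob carried both motifs in the same order, with 16, 17 and 14 bases between them. The Y box of H2-Aa started 50 bases upstream of its start site, and the letters ATGATGC were not in its window. The motif search covered a longer upstream stretch than the printed windows. Over both strands of that stretch, TGATTGG occurred in 7.23% of 32851 RefSeq promoters, ATGATGC in 1.99% and both in 0.161%. The motifs do not overlap each other. The H2-DMb1 promoter held both motifs and that of H2-Oa held the Y box, but these lay over annotated exons and are not shown. Neither of the 2 promoters listed for H2-DMa had a match. H2-Ab1, Cd74 and Ciita had no promoter entry. A match is a description of letters and not a measured binding site.

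Kept cells were the barcodes that the authors retained in their normalized files, 1914, 1221 and 2515 in tumors 1, 2 and 3 (5650 of 13622 barcodes). Their median depth was 4283, 1594 and 1816 UMIs (unique molecular identifiers, each standing for 1 captured transcript), so values from tumor 1 rested on the most molecules. Tumors 1 and 2 shared 3 kept barcode sequences and tumors 2 and 3 shared 1. Cells were clustered again with Seurat without the class II genes or the other genes tested, and clusters were named only where at least 3 markers of a cell type led them. The counts of cells below therefore rest on rebuilt names. The B cell-like class had 204, 15 and 26 cells, the macrophage-like class 602, 98 and 184, the plasmacytoid dendritic-like class 90, 4 and 23, and the tumor-like class 355, 943 and 2099. For comparisons, UMIs were summed per tumor and class, and sums of fewer than 10 cells were left out. This gave 27 sums over 12 classes, from 23760 to 5953064 UMIs. Levels are given as CPM, the UMIs of a gene relative to all UMIs of the sum, scaled by TMM factors, and because UMIs were read from transcript ends they were not divided by gene length.

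Tumor 1 stood apart in depth, and class II UMIs in its tumor-like cells, which served as the background of each tumor, were the most frequent. Tumor-like cells held the 10 genes at 4.43 to 14.9% of the level over all kept cells in tumor 1 (median 5.89%), at 0.825 to 2.03% in tumor 2 (median 1.53%, 4 genes with at least 100 UMIs) and at 3.43 to 8.72% in tumor 3 (median 4.08%, 6 genes). The ranges of tumors 1 and 3 overlapped. In tumor 1, 1 tumor-like cell of 355 held 143 of the 345 UMIs of H2-Aa, H2-Ab1, H2-Eb1 and Cd74, and without it, left out after the values were seen, the median was 3.91% (0 to 9.42). That cell had no UMI of a macrophage or B cell marker. Macrophage markers in tumor-like cells were at a median of 3.14, 2.32 and 3.76% of their level over all kept cells in tumors 1, 2 and 3, and neutrophil markers at 2.70, 1.23 and 2.58%. B cell markers were at a median of 8.77% in tumor 1, and the 1 marker with enough UMIs in tumors 2 and 3 was at 30.9 and 53.9%.

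The 4 most abundant genes, the chains H2-Aa, H2-Ab1 and H2-Eb1 and the invariant chain Cd74, were high in 3 classes. Their summed level was 12523 ± 7445 CPM in macrophage-like cells (SD, n = 3 tumors), 12276 ± 12475 CPM in B cell-like cells (n = 3) and 7602 ± 3580 CPM in plasmacytoid dendritic-like cells (n = 2). These 3 neighbours did not differ beyond their spread. Plasma cell-like cells (5179 CPM) and mesothelial-like cells (2838 CPM) followed, each with a sum from tumor 1 only. Endothelial-like cells were at 1018 ± 1690 CPM (n = 3), CAF-like cells (cancer-associated fibroblasts) at 439 ± 580 CPM (n = 2), neutrophil-like cells at 310 ± 488 CPM (n = 3), tumor-like cells at 175 ± 240 CPM (n = 3), T cell-like cells at 147 ± 189 CPM (n = 3), NK cell-like cells at 82.4 CPM (tumor 1 only) and erythroid-like cells at 15.3 ± 21.7 CPM (n = 2). From endothelial-like to T cell-like cells, neighbours in this order lay within each other's spread, and the NK cell-like class, with 1 sum, has no spread of its own.

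**Figure D1:**
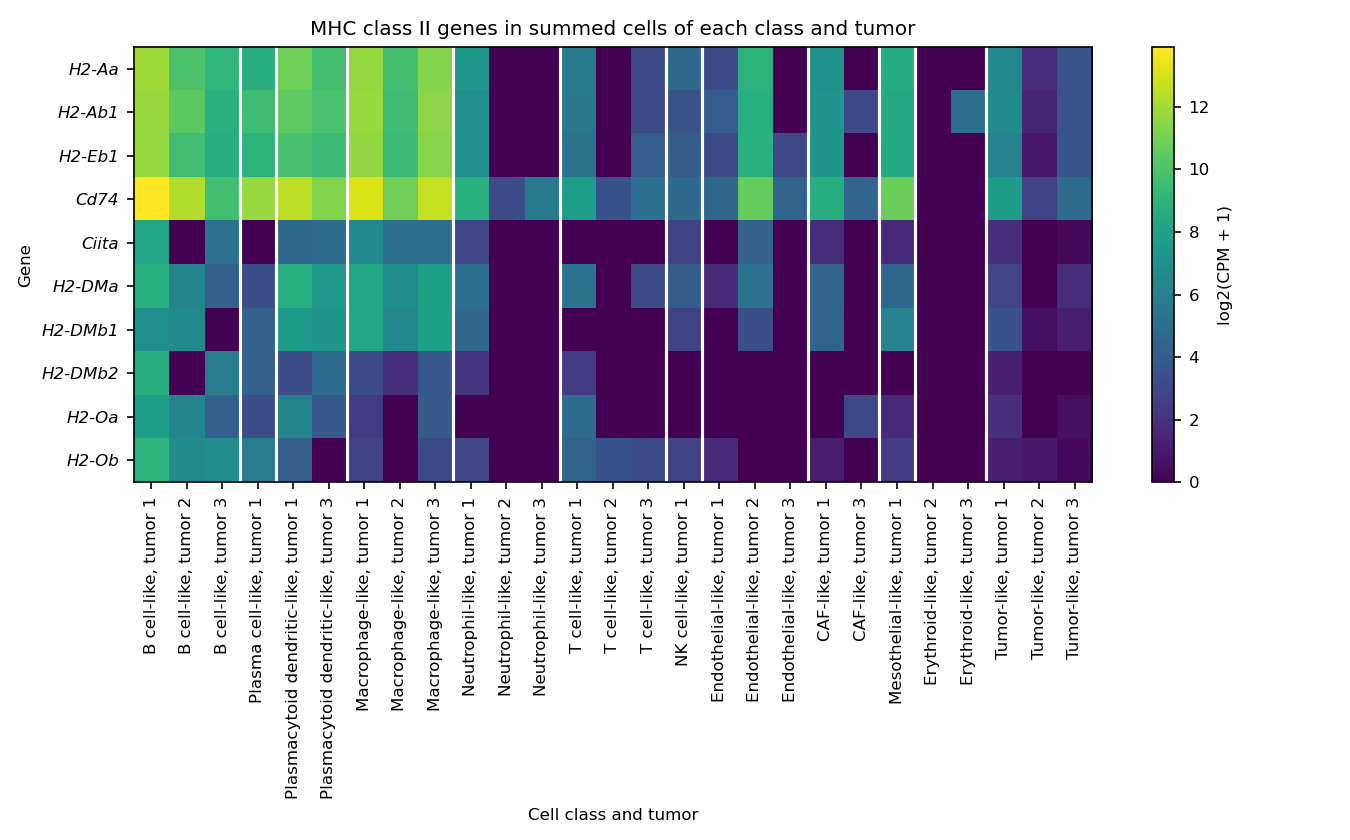
Heat map of the 10 MHC class II genes (rows) in each summed class and tumor (columns, white lines between classes), with colour giving the level as log2(CPM + 1). The chain genes and Cd74 are bright in the B cell-like, macrophage-like and plasmacytoid dendritic-like columns, while H2-DMb2, H2-Oa and H2-Ob reach 411, 223 and 513 CPM in the B cell-like cells of tumor 1 and at most 12.6, 14.2 and 7.88 CPM in macrophage-like cells.

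Cd74 was at 15432, 5128 and 820 CPM in the B cell-like cells of tumors 1, 2 and 3, at 8891, 1918 and 6490 CPM in macrophage-like cells and at 5932 and 2445 CPM in the plasmacytoid dendritic-like cells of tumors 1 and 3. In tumor-like cells it was at 201, 5.49 and 29.7 CPM. The gene lies at chr18:60803848-60812652. Each sum of the 3 antigen-presenting classes exceeded the tumor-like sum of its own tumor. The order of the classes changed between tumors, with B cell-like cells highest in tumors 1 and 2 and macrophage-like cells highest in tumor 3.

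H2-Aa was at 3889, 1041 and 578 CPM in B cell-like cells and at 3285, 862 and 2572 CPM in macrophage-like cells. H2-Ab1 was at 3456, 1345 and 447 CPM in B cell-like cells and at 3421, 759 and 2889 CPM in macrophage-like cells. H2-Eb1 was at 3471, 812 and 410 CPM in B cell-like cells and at 3117, 723 and 2640 CPM in macrophage-like cells. The 3 chain genes thus kept 1 pattern, with overlapping ranges in both classes and tumor 3 low in B cell-like cells only. The B cell-like sum of tumor 3 (26 cells) also held tumor markers at 2203 CPM, against 1478 CPM in tumor 2 and 63.9 CPM in tumor 1, and 4 of 7 B cell markers in at least 10% of its cells. The part of this admixture in the low class II level of tumor 3 was not tested.

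Against the mean of all other classes, all 10 genes were higher in B cell-like cells (edgeR quasi-likelihood test, adjusted p from 4.66e-08 for H2-Ob to 0.0384 for H2-DMb1), where 2.48% of the 9716 genes tested were higher and 0.0823% were lower. Without tumor 1, 5 genes passed: H2-Ob, H2-Ab1, H2-Aa, H2-Eb1 and Cd74. In macrophage-like cells 7 of 10 were higher, against 11.9% of all genes (0.0618% lower). H2-DMb1 had an adjusted p of 3.19e-05 and Cd74 one of 2.63e-03, and the 3 that did not pass were H2-DMb2 (adjusted p = 0.122), H2-Oa (0.586) and H2-Ob (1). In plasmacytoid dendritic-like cells 6 of 10 were higher, against 5.23% of all genes (0.072% lower): H2-DMa (adjusted p = 7.18e-04), H2-DMb1 (9.27e-04), H2-Oa (5.46e-03), Cd74 (0.0346), H2-Aa (0.0391) and H2-Ab1 (0.0459). Only H2-Oa, H2-DMa and H2-DMb1 passed there without tumor 3, a fit in which the class had 1 sum and was assumed to vary like the other classes. With the tumor as a block, Ciita and H2-Eb1 passed as well in plasmacytoid dendritic-like cells, and H2-DMb2 in macrophage-like cells. Each class here was set against a mean that holds the other antigen-presenting classes, and the 3 comparisons share sums.

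In the remaining 9 classes none of the 10 genes was called in either direction by edgeR. This says little of lower levels, since classes without a UMI of a gene entered the mean of the other classes and left many of these differences with standard errors too large to use. The mesothelial-like, plasma cell-like and NK cell-like classes had 1 sum each. The share of all genes called there was 17.3% in neutrophil-like, 15.4% in tumor-like, 14% in CAF-like, 12% in endothelial-like, 9.61% in mesothelial-like, 3.08% in plasma cell-like, 2.01% in T cell-like, 1.8% in NK cell-like and 0.309% in erythroid-like cells. Of the 90 pairs of a gene and a class, 5 higher and 1 lower had an unadjusted p under 0.05, and DESeq2 called 3. With the tumor as a block, H2-DMb1 was called higher in mesothelial-like cells. In some of these sums the UMIs of the 4 abundant genes were spread over many cells. In tumor 1 they lay in 20 of 21 plasma cell-like and 14 of 16 mesothelial-like cells, where the top cell held 20.9 and 23.1%. In tumor 3 they lay in 265 of 2099 tumor-like cells. In other sums 1 cell held a large part of them. All 322 UMIs of the 4 abundant genes in the endothelial-like cells of tumor 2 lay in 1 cell, which also held 48 UMIs of macrophage markers. In the CAF-like cells of tumor 1, 1 cell held 553 of 663, with 240 UMIs of macrophage markers. In neutrophil-like cells of tumor 1, 1 cell held 118 of 267, with 261 UMIs of macrophage markers. These counts set the class sums, and whether such barcodes hold more than 1 cell was not tested.

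The share of cells with any UMI of the 4 abundant genes was compared after each cell was thinned to 500 UMIs, which left out no kept cell. It was 100, 100 and 61.5% in B cell-like cells (100, 100 and 88.5% before thinning). In plasmacytoid dendritic-like cells of tumors 1 and 3 it was 85.6 and 87.0% (98.9 and 95.7% before thinning). Macrophage-like cells were lower, at 45.8% (exact 95% binomial interval 41.8 to 49.9), 18.4% (11.3 to 27.5) and 38.0% (31.0 to 45.5), and at 74.8, 26.5 and 52.7% before thinning. Tumor-like cells, used as the background, were at 19.7% (15.7 to 24.2), 0.848% (0.367 to 1.66) and 3.76% (2.99 to 4.67), and at 36.3, 2.44 and 12.6% before thinning. The macrophage-like share exceeded the tumor-like share in each tumor, with intervals that did not overlap. The median depths before thinning were 8787, 2827 and 2889 UMIs in macrophage-like cells, 4367, 1559 and 1494 in B cell-like cells and 934, 1542 and 1812 in tumor-like cells. Neutrophil-like cells (7.63, 1.85 and 9.09%) and T cell-like cells (10.7, 2.17 and 5.88%) had intervals that overlapped or lay below the tumor-like interval of the same tumor. In tumor 1 both shares were below the tumor-like share, which is therefore no floor for other classes. The intervals cover counting error only.

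**Figure D2:**
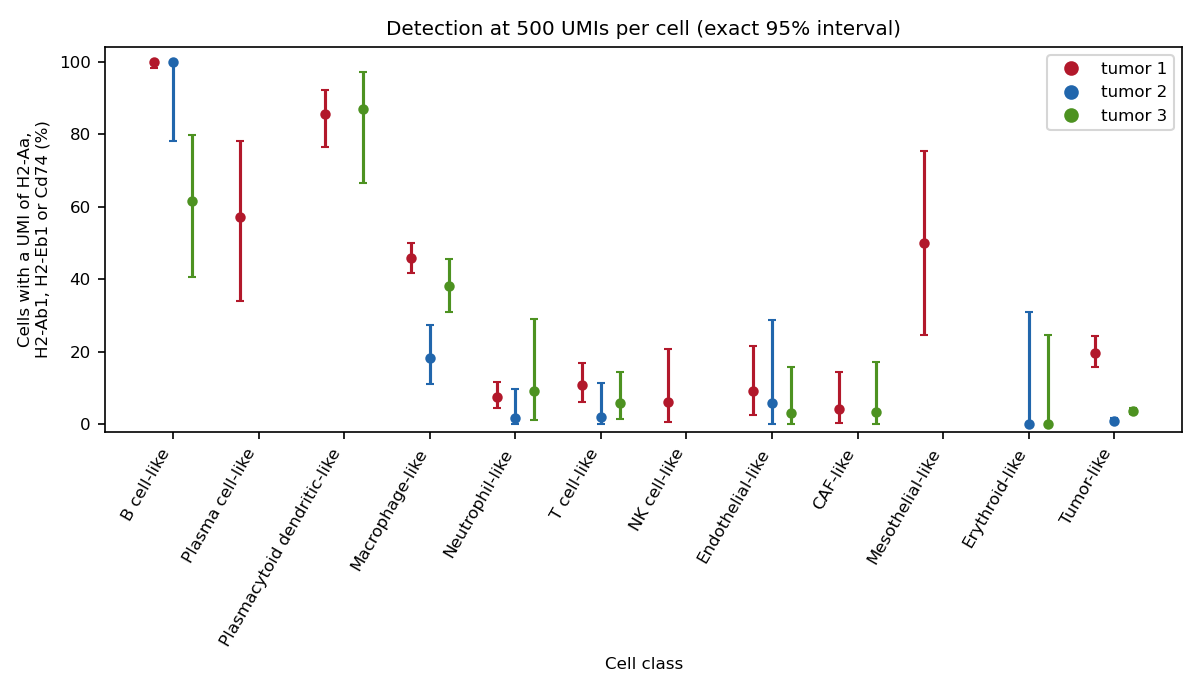
Share of cells (percent) with at least 1 UMI of H2-Aa, H2-Ab1, H2-Eb1 or Cd74 after thinning each cell to 500 UMIs, by class and tumor, with exact 95% binomial intervals. Cells of the B cell-like class and of the plasmacytoid dendritic-like class lie highest, macrophage-like cells between 18.4 and 45.8%, and tumor-like cells at 19.7, 0.848 and 3.76%.

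Macrophage-like and B cell-like cells had like summed levels as means over tumors, but not within each tumor. The levels were 18714, 4262 and 14592 CPM in macrophage-like and 26248, 8326 and 2254 CPM in B cell-like cells. The spread over single cells differed too. After thinning, the 4 genes took a median of 2, 1.2 and 0.2% of the UMIs of a B cell-like cell, and 95.1, 60 and 11.5% of B cell-like cells gave them at least 1%. The median macrophage-like cell had none in any tumor, and 26.2, 10.2 and 25% of macrophage-like cells gave them at least 1%. These cells include an unnamed low-depth subcluster (44, 34 and 70 cells), of which 6.82, 2.94 and 4.29% gave them at least 1%. Gap43, Chgb and Mycn, which also led tumor-like clusters, were among its leading genes. The part of this subcluster in the difference from B cell-like cells was not tested. Before thinning, 50% of the UMIs of the 4 genes came from 44 of 602, 4 of 98 and 13 of 184 macrophage-like cells, that is 7.31, 4.08 and 7.07% of the cells. The same 50% came from 75 of 204, 5 of 15 and 6 of 26 B cell-like cells. A class II share of at least 1% was thus reached by a minority of macrophage-like cells and by most B cell-like cells of tumors 1 and 2. In tumor 3 the order was reversed, with 11.5% of B cell-like and 25% of macrophage-like cells. Any UMI of the 4 genes was more widespread, in 74.8, 26.5 and 52.7% of macrophage-like cells and in 100, 100 and 88.5% of B cell-like cells before thinning.

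**Figure D3:**
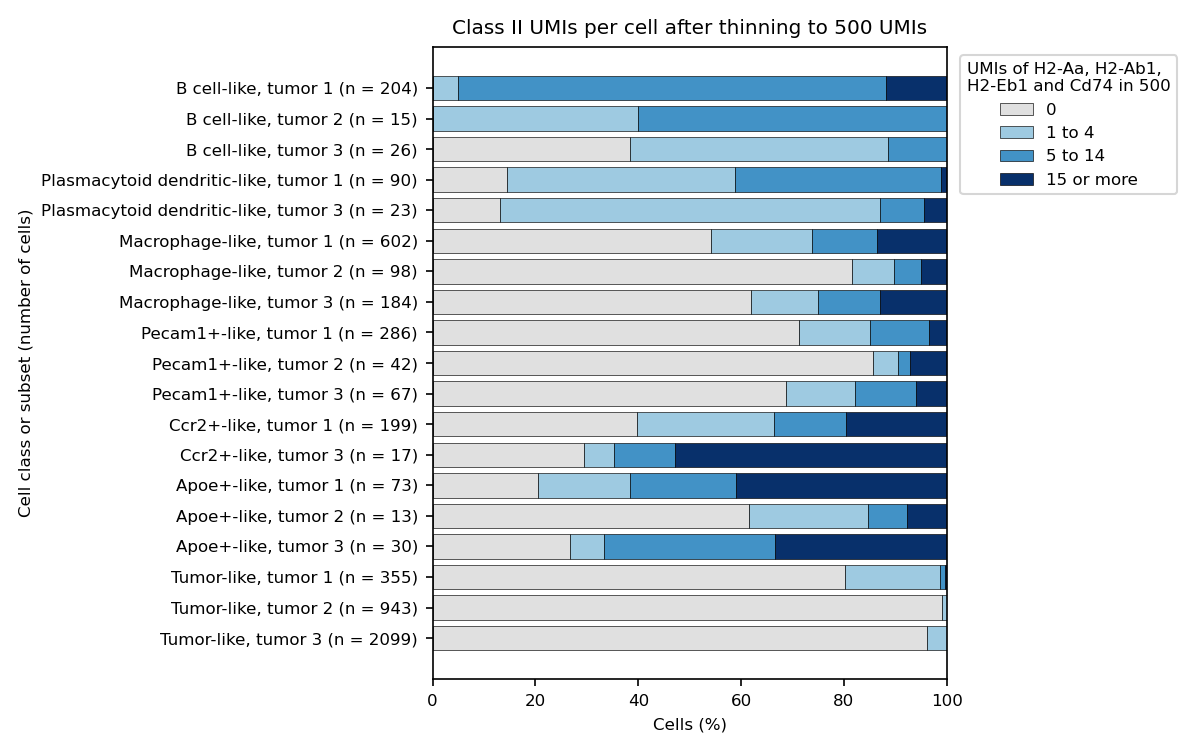
Stacked bars of the percent of cells with 0, 1 to 4, 5 to 14 or 15 and more UMIs of H2-Aa, H2-Ab1, H2-Eb1 and Cd74 after thinning to 500 UMIs, by class or macrophage-like subset and tumor, with the number of cells in brackets. At least 5 UMIs (1%) were held by 95.1, 60 and 11.5% of B cell-like cells and by 26.2, 10.2 and 25% of macrophage-like cells in tumors 1, 2 and 3.

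By number, macrophage-like cells were the main source of class II RNA. They gave 69.3, 68.2 and 90.7% of the UMIs of the 10 genes in tumors 1, 2 and 3 while making up 31.5, 8.03 and 7.32% of the kept cells. B cell-like cells gave 16.9, 13.6 and 1.26% from 10.7, 1.23 and 1.03% of the cells. Plasmacytoid dendritic-like cells gave 7.10, 3.23 and 3.73%. The share of cells of a class in a dissociated tumor depends on which cells survived dissociation and passed the authors' limits.

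The mix of transcripts also varied. Cd74 made up 58.8, 61.6 and 36.4% of the UMIs of the 4 abundant genes in B cell-like cells, 47.5, 45.0 and 44.5% in macrophage-like cells, and 58.5 and 48.2% in the plasmacytoid dendritic-like cells of tumors 1 and 3. The macrophage-like share was the steadiest over the tumors. H2-Eb1 made up 9.65% in the plasmacytoid dendritic-like cells of tumor 1 and between 16.7 and 18.1% in macrophage-like cells. These shares count UMIs and were compared between classes, not between genes.

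Ciita, the transactivator, was at 290, 0 and 37.3 CPM in B cell-like cells, at 90.5, 31.5 and 31.5 CPM in macrophage-like cells and at 24.9 and 27.8 CPM in plasmacytoid dendritic-like cells of tumors 1 and 3. Its B cell-like UMIs numbered 214, 0 and 2, so the level in tumors 2 and 3 was set by few molecules. In tumor-like cells it gave 2, 0 and 1 UMIs. The B cell-like range covered the values of both other classes.

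The peptide exchange genes were found in all 3 antigen-presenting classes. H2-DMa was at 312, 110 and 241 CPM in macrophage-like cells, at 438 and 181 CPM in plasmacytoid dendritic-like cells and at 418, 76.2 and 18.6 CPM in B cell-like cells. H2-DMb1 was at 317, 86.7 and 246 CPM in macrophage-like cells, at 191 and 167 CPM in plasmacytoid dendritic-like cells and at 125, 102 and 0 CPM in B cell-like cells. For H2-DMa all ranges overlapped. For H2-DMb1 the B cell-like sums lay below both plasmacytoid dendritic-like sums, a difference that the test did not call. The B cell-like H2-DMb1 values of tumors 2 and 3 rested on 4 and 0 UMIs. Before TMM scaling, the 95% Poisson interval of tumor 2 ran from 43.5 to 409 CPM and held both plasmacytoid dendritic-like values (166 and 211 CPM). The floor of 3 counts in tumor 3 stood at 74.2 CPM.

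Between B cell-like and macrophage-like cells, 3 of the 10 genes differed, where 1.4% of all genes tested were higher and 4.84% lower in B cell-like cells. H2-Ob, the beta chain of the H2-DM inhibitor, was at 513, 102 and 112 CPM in B cell-like cells and at 5.71, 0 and 7.88 CPM in macrophage-like cells. H2-Oa, the alpha chain, was at 223, 76.2 and 18.6 CPM against 4.11, 0 and 14.2 CPM. H2-DMb2 was at 411, 0 and 55.9 CPM against 8.22, 2.63 and 12.6 CPM. For H2-Ob and H2-Oa every B cell-like sum lay above every macrophage-like sum. The H2-Oa value of tumor 3 rested on 1 B cell-like UMI, with a 95% Poisson interval of 0.627 to 138 CPM before TMM scaling. For H2-DMb2 the B cell-like sum of tumor 2 had no UMI, and its floor of 3 counts stood at 120 CPM before TMM scaling, above all macrophage-like values.

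On the log2 scale, H2-Ob was higher in B cell-like cells by 5.65 ± 0.77 (SE; edgeR quasi-likelihood test, adjusted p = 3.42e-04), H2-DMb2 by 4.51 ± 0.89 (adjusted p = 4.69e-03) and H2-Oa by 4.34 ± 1.05 (adjusted p = 0.0179). The other 7 genes had adjusted p-values from 0.446 to 0.999 in this comparison. The median log2 difference was 0.07 over the 10 genes and -0.25 over all genes tested. Without tumor 1 only H2-Ob passed and without tumor 2 H2-DMb2 and H2-Ob passed, and DESeq2 called H2-Ob alone. The UMIs behind the B cell-like values of tumors 2 and 3 numbered 4 and 6 for H2-Ob, 3 and 1 for H2-Oa, and 0 and 3 for H2-DMb2.

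The balance of the inhibitor genes to the exchange genes moved with the class. UMIs of H2-Oa and H2-Ob together were 0.771, 1 and 1.75 times those of H2-DMa, H2-DMb1 and H2-DMb2 in B cell-like cells. The ratio was 0.0154, 0 and 0.0442 in macrophage-like cells and 0.145 and 0.037 in plasmacytoid dendritic-like cells of tumors 1 and 3. The B cell-like ratio was above the macrophage-like and plasmacytoid dendritic-like ratios of the same tumor, but rested on 7 against 7 UMIs in tumor 2 and 7 against 4 in tumor 3. Some other classes were higher still. In tumor 1 the ratio was 1.13 in T cell-like cells (35 against 31 UMIs) and 1.4 in plasma cell-like cells (7 against 5). In tumor 2 it was 2 in tumor-like cells (2 against 1).

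The 2 H2-DM beta chain genes were used in different proportions. Of the H2-DMb1 and H2-DMb2 UMIs in B cell-like cells, H2-DMb2 gave 76.7% in tumor 1 (303 of 395; exact 95% binomial interval 72.2 to 80.8), 0 of 4 in tumor 2 (interval up to 60.2%) and 3 of 3 in tumor 3 (from 29.2%). In macrophage-like cells it gave 2.53% (36 of 1424; 1.78 to 3.48), 2.94% and 4.88%. In plasmacytoid dendritic-like cells it gave 4.38% (7 of 160) in tumor 1 and 14.3% (2 of 14) in tumor 3. The contrast rested on tumor 1, because tumors 2 and 3 gave only 4 and 3 B cell-like UMIs of the pair. The genes are neighbours and related copies, with 79.2 to 87.1% identity over the last 100 bases of their transcripts and 62.4% over the last 400, and how reads matching both were assigned was not tested.

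**Figure D4:**
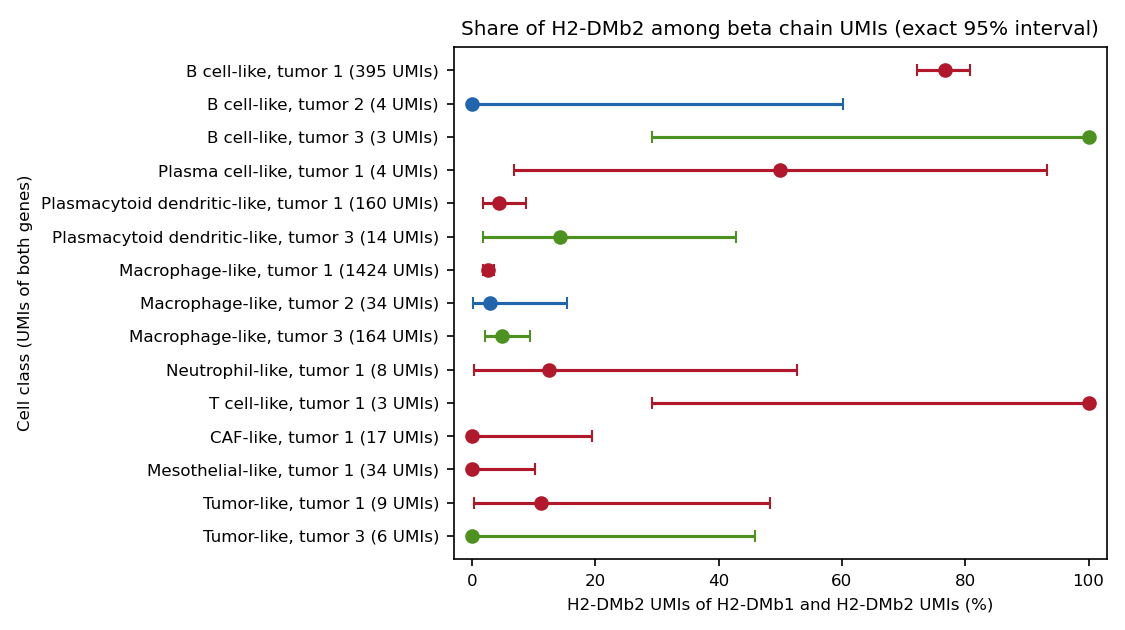
H2-DMb2 as a percent of the H2-DMb1 and H2-DMb2 UMIs (horizontal axis) in classes and tumors with at least 3 UMIs of the pair, whose number stands in brackets, with exact 95% binomial intervals. The B cell-like cells of tumor 1 lie at 76.7%, macrophage-like cells of all tumors between 2.53 and 4.88%, and classes with few UMIs have wide intervals.

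Between plasmacytoid dendritic-like and macrophage-like cells none of the 10 genes was called by edgeR, where 1.59% of all genes tested were higher and 1.43% lower. The plasmacytoid dendritic-like class had sums from tumors 1 and 3 only, so a missing call does not show equal levels. Only H2-Oa had an unadjusted p under 0.05 (log2 difference 3.12 ± 1.10, adjusted p = 0.175), and DESeq2 called none. H2-Oa was at 74.8 and 13.9 CPM in the plasmacytoid dendritic-like cells of tumors 1 and 3, from 60 UMIs and 1 UMI, and passed when the Clec10a+ cells described below were left out of the macrophage-like sums or when no filter on low counts was set. Against plasmacytoid dendritic-like cells, 1 gene was higher in B cell-like cells, H2-Ob (4.25 ± 0.91, adjusted p = 0.0190), where 0.278% of all genes were higher and 1.21% were lower. With the tumor as a block H2-DMb2 passed as well, and without any 1 of the 3 tumors no gene passed.

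Neutrophil-like cells were lower than macrophage-like cells in H2-DMb1 (by -4.14 ± 1.11 on the log2 scale, adjusted p = 0.0285), H2-Ab1 (-5.46 ± 1.59, adjusted p = 0.0397) and H2-Eb1 (-5.37 ± 1.62, adjusted p = 0.0487), where 2.71% of all genes tested were lower and 3.85% were higher. Their Cd74 level was 451, 8.46 and 49.8 CPM. With the tumor as a block 7 genes passed, without tumor 1 there were 6, and without tumor 2 or tumor 3 there were none.

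In T cell-like cells H2-Oa stood above the level over all kept cells of tumor 1. These cells held 20 UMIs of H2-Oa (29.0 CPM, 116% of the level over all kept cells) and 15 of H2-Ob (21.8 CPM), whereas Cd74 was at 223 CPM. In tumors 2 and 3 they held no H2-Oa UMI and 1 UMI each of H2-Ob. In tumor 1, 1 T cell-like cell held 116 of the 250 UMIs of the 4 abundant genes together with 22 UMIs of B cell markers, and its part in the H2-Oa and H2-Ob counts was not tested.

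Macrophage-like cells of these tumors fell into 3 named subsets, called by their leading genes Pecam1+-like (286, 42 and 67 cells), Ccr2+-like (199, 9 and 17 cells) and Apoe+-like (73, 13 and 30 cells). Pecam1, Ccr2 and Apoe encode an adhesion molecule of leukocytes and endothelium, a chemokine receptor of inflammatory monocytes and a lipid carrier of tissue macrophages. The unnamed low-depth subcluster (44, 34 and 70 cells) was left out. Sums of the subsets were compared in a fit of their own with 8 sums and 4566 genes tested, in which 7 of the 10 members passed the filter on low counts. H2-DMb2, H2-Oa and H2-Ob did not.

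Mean levels of the 7 tested members were lowest in Pecam1+-like cells. Cd74 was at 3438, 1595 and 2082 CPM in Pecam1+-like cells, at 7707 and 14207 CPM in the Ccr2+-like cells of tumors 1 and 3, and at 11622, 1854 and 10888 CPM in Apoe+-like cells. H2-DMa was at 58.2, 74.9 and 51.1 CPM, at 350 and 511 CPM and at 385, 142 and 430 CPM in the same order. Ciita was at 8.44, 23.4 and 0 CPM, at 122 and 97.8 CPM and at 93.8, 26.6 and 57.0 CPM. For H2-DMa and Ciita every Pecam1+-like sum lay below every other sum, whereas for Cd74 the Apoe+-like sum of tumor 2 lay within the Pecam1+-like range.

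Against the mean of the other subsets, H2-DMa was lower in Pecam1+-like cells (log2 difference -2.59 ± 0.41, adjusted p = 0.0284), where 0.679% of all genes tested were lower and 0.438% were higher. The other 6 genes had log2 differences from -1.98 to -3.20 with adjusted p-values from 0.0549 to 0.126, so that they did not pass. With the tumor as a block all 7 passed, as they did with DESeq2, while none passed without tumor 2, without tumor 3 or without the Clec10a+ cells. The median over the 7 genes was -2.47, against 0.05 over all genes tested.

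In Ccr2+-like cells no member was called higher or lower by edgeR, and 0% of all genes were called. The log2 differences were 1.23 to 2.18 (adjusted p from 0.171 to 0.603), 6 members had an unadjusted p under 0.05, and DESeq2 called 1. In Apoe+-like cells no member was called by edgeR, where 4.71% of all genes were higher and 0.657% were lower. Their log2 differences were 0.67 to 1.18 (adjusted p from 0.174 to 0.608), 1 member (H2-DMa) had an unadjusted p under 0.05, and DESeq2 called none. The Ccr2+-like comparison had sums from only 2 tumors. With the tumor as a block Ciita and H2-DMa passed in Ccr2+-like cells and 1 member passed in Apoe+-like cells.

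**Figure D5:**
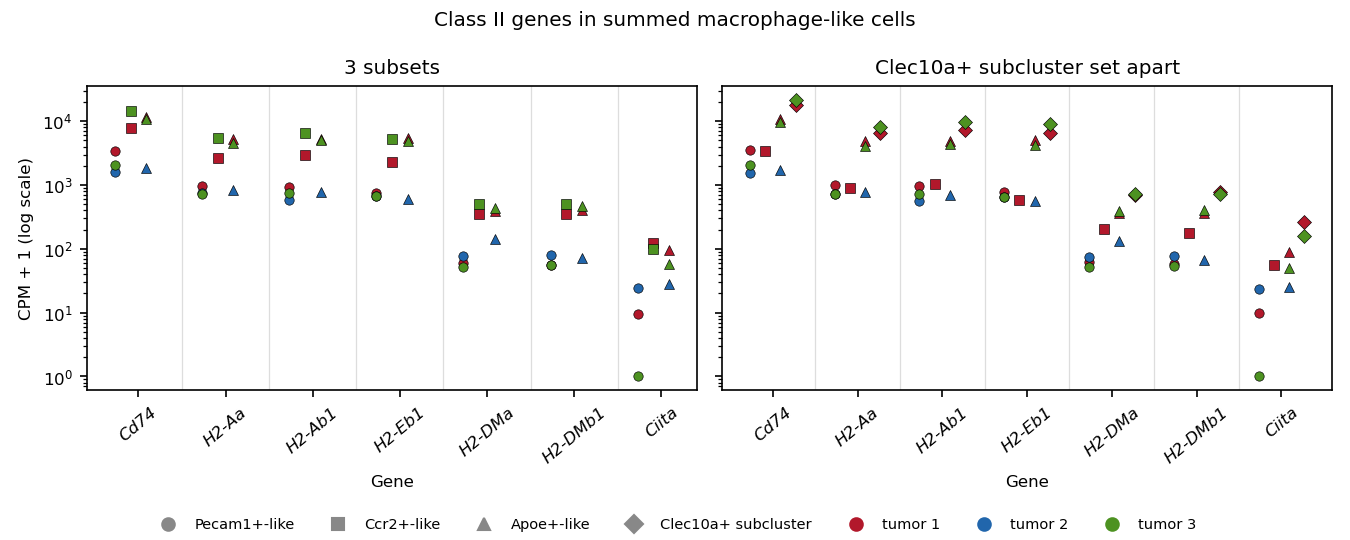
Level of 7 class II genes (CPM + 1 on a log axis) in summed macrophage-like cells, with shapes for the subsets and colours for the tumors. The left panel has the 3 subsets and the right panel a separate fit with the Clec10a+ subcluster set apart, where Cd74 is at 17684 and 21608 CPM in the Clec10a+ cells of tumors 1 and 3 and at 3350 CPM in the remaining Ccr2+-like cells of tumor 1.

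Within the Ccr2+-like subset the class II UMIs were carried largely by 1 small group, singled out after its values were seen and therefore described without a test. A finer clustering set apart 88 cells (74, 2 and 12 by tumor) led by Clec10a, a C-type lectin gene of myeloid cells. Of these, 80 lay in the Ccr2+-like subset and 8 in the Apoe+-like subset. Cd74 was at 17684 and 21608 CPM in these cells in tumors 1 and 3, and H2-Eb1 at 6431 and 9066 CPM. In the remaining Ccr2+-like cells of tumor 1, Cd74 was at 3350 CPM and H2-Aa at 881 CPM, both within the Pecam1+-like range of the same fit, and H2-Eb1 at 589 CPM was below it. H2-Ab1 (1029 CPM), Ciita (53.9 CPM), H2-DMa (200.1 CPM) and H2-DMb1 (174 CPM) were above every Pecam1+-like sum, the highest of which were 949, 22.7, 72.7 and 77.3 CPM. The 10 genes took 3.65, 2.64 and 5.19% of the UMIs of the Clec10a+ cells and 0.566, 0.555 and 0.914% in the remaining Ccr2+-like cells.

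The Clec10a+ cells held markers of more than 1 cell type. Ccr2 was found in 90.5, 100 and 58.3% of them and the macrophage marker Cd68 in 100, 0 and 83.3%. Of 9 conventional dendritic cell markers 3 led the group: Flt3 (24.3, 0 and 25%), Batf3 (14.9, 0 and 58.3%) and Wdfy4 (44.6, 50 and 33.3%). Other defining markers were scarce, with Xcr1 in 5.41% and Clec9a in 6.76% of the cells in tumor 1. The Clec10a+ cells are therefore called by their leading gene only. Clec10a itself had a UMI in 31.1, 50 and 41.7% of them, so the name does not hold for every cell. Ciita, H2-DMb1, H2-Ab1 and H2-DMa, held out of the clustering, were also among the leading genes of the group. Over all macrophage-like cells the conventional dendritic markers summed to 78.6, 98.9 and 124 CPM, against 17951 CPM of macrophage markers in tumor 1.

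The shares of cells were again lowest in Pecam1+-like cells, while the Apoe+-like share was above the Ccr2+-like share in tumors 1 and 3. After thinning to 500 UMIs, 28.7, 14.3 and 31.3% of Pecam1+-like cells had a UMI of the 4 abundant genes (64.0, 26.2 and 49.3% before thinning), against 79.5, 38.5 and 73.3% of Apoe+-like cells (95.9, 46.2 and 86.7%). In Ccr2+-like cells of tumors 1 and 3 the share was 60.3 and 70.6% (87.9 and 88.2%). The Clec10a+ cells of tumors 1 and 3 stood at 93.2 and 91.7%, and the Ccr2+-like cells without them at 43.5% in tumor 1. Each subset lay above the tumor-like share of its own tumor (19.7, 0.848 and 3.76%), but for Pecam1+-like cells of tumor 1 the intervals overlapped (23.5 to 34.3 against 15.7 to 24.2).

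Other genes of the pathway were followed in lists. The lysosomal proteases that degrade the invariant chain and process antigen were higher in macrophage-like cells than in B cell-like cells. Ctss, Ctsl, Ctsb, Ctsz and Lgmn were all 5 higher in macrophage-like cells against the mean of the other classes (11.9% of all genes were), 1 of 5 (Ctsl) was lower in B cell-like cells, and 3 of 5 (Ctsb, Ctsl and Ctsz) were higher in plasmacytoid dendritic-like cells (5.23% of all genes were). Against macrophage-like cells, 4 of 5 were lower in B cell-like cells: Ctsb (-5.93 ± 1.03, adjusted p = 1.33e-03), Ctsl (-4.78), Lgmn (-4.31) and Ctsz (-2.52). The median of the list was -4.31 in that comparison. Within macrophage-like cells, Ctsb (2.93 ± 0.40), Lgmn (2.47) and Ctsz (1.17) were higher in Apoe+-like cells, and Lgmn was lower in Pecam1+-like cells (-1.68 ± 0.28, adjusted p = 0.034).

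Of the transcription machinery that acts on the X and Y boxes, 6 of 8 list genes were tested, namely Ciita, Rfxap, Creb1 and the NF-Y genes Nfya, Nfyb and Nfyc, while Rfx5 and Rfxank did not pass the filter on low counts. Ciita was the only one of the 6 called higher in B cell-like and in macrophage-like cells, and none was called between these classes by edgeR. The membrane ligase gene March1, which removes class II from the surface, and Cd83, which opposes it, were higher in both B cell-like and macrophage-like cells, and March1 in plasmacytoid dendritic-like cells. Cd83 was lower in plasmacytoid dendritic-like than in macrophage-like cells (-4.22 ± 1.11, adjusted p = 0.0393). Of 4 costimulatory genes, Cd40 and Cd86 were higher in B cell-like cells and Cd80 and Cd86 in macrophage-like cells. Of all genes, 2.48, 11.9 and 5.23% were higher in B cell-like, macrophage-like and plasmacytoid dendritic-like cells. In neutrophil-like cells, where 16.5% of all genes were higher, 2 of the 4 costimulatory genes and 1 of March1 and Cd83 were also higher. Mean Cd80 was at 114 CPM there and at 12.1 CPM in macrophage-like cells. Mean March1 was at 114, 105 and 96.4 CPM in neutrophil-like, macrophage-like and B cell-like cells.

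In the interferon gamma list, the receptor genes Ifngr1 and Ifngr2 were the 2 of 7 that were higher in macrophage-like cells, where 11.9% of all genes were, and none passed in B cell-like or in plasmacytoid dendritic-like cells. In neutrophil-like cells, where none of the 10 class II genes was called higher, 5 of 7 were higher (Ifngr1, Ifngr2, Jak1, Jak2 and Irf1), as were 16.5% of all genes. None of the 7 MHC class I genes tested, among them H2-K1 and B2m, passed in B cell-like, macrophage-like or plasmacytoid dendritic-like cells against the other classes. H2-Eb2, a further beta chain gene of the region, was higher in B cell-like than in macrophage-like cells (3.43 ± 0.96, adjusted p = 0.0442), at 44.1 ± 41.1 CPM against 3.42 ± 4.63 CPM (SD, n = 3). Ifi30 and H2-Ea-ps were not analysed here.

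Across the 27 sums the members resembled each other to different degrees. Pearson correlations of log2 CPM among H2-Aa, H2-Ab1, H2-Eb1 and Cd74 ran from 0.906 to 0.987, while H2-Ob stood farthest off, at 0.321 with H2-DMb1. Among 7004 other genes, those whose pattern was most like the mean of the 4 abundant genes were Ly86 (0.95), Arl5c (0.87), Calhm2 (0.83), Fgd2 (0.83), Stap1 (0.82), Cd79b (0.82), Ctss (0.81), Unc93b1 (0.80), Irf8 (0.80) and Cybb (0.80). By Spearman correlation, 6 of these were again among the first 10. The points are class sums that share tumors, libraries and depth, and the values are a description. Within thinned macrophage-like cells the closest genes, Syngr2, C1qa, Gm2a, Unc93b1 and S100a4, had correlations from 0.0866 to 0.418 over the tumors, which in counts this sparse is no finding.

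The authors' corrected counts in tumor-like cells stood to the raw counts in a different way in each tumor. From raw to corrected counts, the UMIs of the 10 genes went from 364 to 1647 in tumor 1, from 27 to 0 in tumor 2 and from 323 to 177 in tumor 3, that is to 54.8% of the raw number. Over all genes, the corrected counts of these cells came to 133, 60.7 and 59.1% of the raw UMIs, so the total rose in tumor 1 too and the drop in tumor 3 was close to that of all genes. Whether the values of tumor 1 are on another scale was not tested. In the 195 tumor-like cells of tumor 1 with fewer than 1000 UMIs, 67 had a class II UMI in the raw counts and all 195 had a corrected value above 0. Raw counts were used for every level above.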

How the data were processed

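Droplet single-cell RNA was analysed in 3 tumors of 1 group, each from 1 mouse. The p-values measure the spread between sums of the same class over these 3 tumors, pooled over the classes of a fit. In the main fit, sums of the same tumor were treated as independent. The deposited raw files hold UMI counts per gene and barcode, made by the authors with Cell Ranger (3.1.0 per the submitters' processing notes, which also name mm10 and Seurat 3.1.5). The deposited normalized files hold the natural log of 1 + a corrected count, from which the authors had taken out free RNA, doublets and, by limits chosen for each tumor, outlying barcodes. No doublet caller was run here. Kept cells were the barcodes of the normalized files, and levels came from raw counts. Summed corrected counts were 53.7, 45.9 and 44.5% below the raw UMIs in tumors 1, 2 and 3.

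Cells were integrated and clustered with Seurat 5.3.0 (2000 variable genes, 30 dimensions, resolution 1) with 46 genes held out, namely the 10 members and the listed pathway genes. A cluster was named where at least 3 markers of a type were at least 2-fold higher and had a UMI in at least 10% of cells, and 21 clusters were found. For each class of a tumor with at least 10 cells the raw counts were added up, and these sums were tested with edgeR 4.0.16 (quasi-likelihood, TMM, filterByExpr) in R 4.3.3. The Benjamini-Hochberg adjustment ran across every gene in the fit, with a threshold of 0.05. DESeq2 1.42.0 was an alternative. The model had class only. Sums of the same tumor come from the same animal, so the tumor number pairs them. Their deviations from class means correlated with a median of 0.247 (45 pairs) within a tumor and -0.194 (90 pairs) between tumors, and with 0.335 (3 pairs) and -0.267 (6 pairs) for macrophage subsets. A fit with the tumor as a block was therefore set beside results whose calls it changed. The script was tested on simulated counts with known log2 changes of 2 and 4. Between B cell-like and macrophage-like cells, 9.78 and 67.4% of these changes were recovered. For B cell-like cells against the other classes the shares were 36.2 and 72.4%, and for Pecam1+-like cells 65.3 and 99%. A gene that was not called can therefore still differ.

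Shares used cells thinned to 500 UMIs and exact binomial intervals (Python 3.11.15, scipy 1.17.1). The genes named were all 10 members, the genes of the pathway lists, and the 10 and 5 genes most like the members across sums and within macrophage-like cells. The members, lists and markers were chosen with earlier results of these data known. Gene positions are from GENCODE M21 and promoters from RefSeq.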

Additional observations from a re-analysis of the deposited data

Results flagged for a closer look

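Of the 1343 barcodes of tumor 1 that the authors left out, 54 (4.02%) held at least 10 UMIs of H2-Aa, H2-Ab1, H2-Eb1 and Cd74, against 30.9% of its kept barcodes. In tumor 3 the share was 0.568% (20 of 3523), against 2.66% of kept barcodes. In tumor 2 it was 0.0644% (2 of 3106), against 2.62%. Depth was not matched between kept and left-out barcodes. The left-out barcodes lay outside every comparison. An unnamed cluster of low depth (113 cells in tumor 1, median 880 UMIs) also stood outside the comparisons, and the 10 genes took 1.63% of its UMIs in tumor 1 (4515 of 276551). In that cluster 1 cell held 1651 of the 4390 UMIs of the 4 abundant genes.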

How the results depend on the processing

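Counts of members called are given beside those of the report (in brackets) where they differ by more than 1.5 times, and no member called in the report changed direction under any alternative run. Members that were not called did change sign in some. For B cell-like cells against the other classes (10), DESeq2 called 4 and leaving out each tumor in turn gave 5 to 10. For plasmacytoid dendritic-like cells against the other classes (6), DESeq2 called 2, corrected counts 3, clustering resolution 0.5 gave 3, and leaving out a tumor 3 to 7. For the other 9 classes (0), DESeq2 called 3, no filter on low counts 15, corrected counts 1, sums of at least 20 cells 2, clustering resolution 0.5 gave 1, no integration 2, and leaving out a tumor 0 to 2. For B cell-like against macrophage-like cells (3), DESeq2 called 1 and leaving out a tumor gave 1 to 3. For plasmacytoid dendritic-like against macrophage-like cells (0), no filter gave 1 and leaving out the Clec10a+ cells 1. For B cell-like against plasmacytoid dendritic-like cells (1), no filter gave 2, no integration 3, corrected counts and clustering resolution 0.5 each 0, and leaving out any tumor 0. For neutrophil-like against macrophage-like cells (3), no filter, no TMM factors and no integration each gave 7, corrected counts, clustering resolution 0.5 and leaving out the Clec10a+ cells each 1, and leaving out a tumor 0 to 6.

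For Pecam1+-like cells (1), DESeq2, no filter and corrected counts each gave 7, sums of at least 20 cells 6, no genes held out 4, subclustering resolution 1, leaving out the Clec10a+ cells and adding the low-depth subcluster to the Apoe+-like cells each 0, and leaving out a tumor 0 to 1. For Ccr2+-like cells (0), DESeq2 and corrected counts each gave 1 and no filter 6. For Apoe+-like cells (0), no filter gave 1, corrected counts 2 and sums of at least 20 cells 3. In the fit with a replicate block on the tumor, members called numbered 7 for neutrophil-like, 2 for B cell-like against plasmacytoid dendritic-like, 8 for plasmacytoid dendritic-like and 8 for macrophage-like (7) against the other classes, 7 for Pecam1+-like, 2 for Ccr2+-like, 1 for Apoe+-like and 1 for the other 9 classes, and the block ended no call of a single gene. The alternatives on the Clec10a+ and low-depth cells were chosen after seeing the data. The cause of these changes was not tested.

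The summed level of the 4 abundant genes in tumor-like cells was 634 CPM with corrected counts. Not thinned, the mean share of cells with these genes was 51.3% in macrophage-like and 97.3% in plasmacytoid dendritic-like cells, and at 1000 UMIs 90.1% in the latter. Over tumors together, the H2-DMb2 share ranged from 42.9 to 76.9% in B cell-like, 2.54 to 4.55% in macrophage-like and 4.35 to 13.3% in plasmacytoid dendritic-like cells when a tumor was left out, and it was 42.9, 4.55 and 13.3% without tumor 1. Depth limits the B cell-like sums of tumors 2 and 3 and every gene with few UMIs.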
